A study of Mus musculus with 6 samples.

Results

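Cell cycle and proliferation genes were followed in whole visceral adipose tissue, the fat around the abdominal organs. They were 40 genes of S phase and mitosis chosen by gene symbol, and all 40 were found among the 55011 symbols of the count table. The Bmal1KO group held 3 libraries of male C57BL/6 mice of the strain Foxp3.Cre-YFP bmal1KO, and the Bmal1WT group 3 libraries of males of the strain Foxp3.Cre-YFP bmal1WT. Both groups carry the Cre recombinase and a yellow fluorescent protein tied to Foxp3, which regulatory T cells express. The loss of Bmal1, the clock gene listed as Arntl, is thus aimed at Foxp3-expressing cells and not at fat cells or macrophages. All mice were 30 weeks old, had spent 14 weeks on a low-fat and 16 weeks on a high-fat diet, and were sampled at zeitgeber time 0 h. The comparison asks what the absence of Bmal1 in those cells changes in the fat of mice fed in this way. The labels do not say that each library came from its own animal, so p-values measure only the spread between these libraries.

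A dividing cell licenses its replication origins, copies its DNA and then builds a spindle that separates the chromosomes. E2F transcription factors switch on the licensing and DNA synthesis genes. A later program, run by FOXM1, MYBL2 and the MuvB complex, switches on cyclin B, Cdk1 and the mitotic machinery. Mature adipocytes rarely divide, and in obese visceral fat the dividing cells are known to include macrophages, stromal progenitors, endothelial cells and lymphocytes. In whole tissue, fewer cells of a type and less RNA per cell cannot be told apart.

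Total counts per library lay between 6514620 and 9529198. All 12 adipocyte markers had counts in every library and summed to between 14553 and 29545 CPM, counts scaled to a common library size. Arntl had 324, 289 and 314 counts in Bmal1KO replicates 1 to 3, against 273, 242 and 373 in Bmal1WT replicates 1 to 3 (edgeR adjusted p = 0.719). Since few cells of whole fat express Foxp3, this level hardly checks the labels. Foxp3 had 3, 0 and 2 counts in Bmal1KO and 0 in each Bmal1WT library, too few for a comparison. Bmal1KO replicate 1 had the lowest total but counts on the most genes, 30019, against 19009 to 20145 in the other 5 libraries. Bmal1WT replicate 1 held 4977 counts on 16 epididymis markers, against 0 to 32 in the others. The 18 testis germ cell markers summed to 148 to 261 counts in Bmal1KO and to 203 to 302 in Bmal1WT.

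Promoter windows are shown for 5 members that the results turn on. In Top2a and Cenpf all Bmal1KO levels lay above all Bmal1WT levels, in Plk1 and Ccne1 all lay below with TMM scaling, edgeR's default correction for the makeup of a library, though not with library size alone, and Mcm6 had the most counts of the licensing members. Each window runs from 250 bases before to 50 after the RefSeq transcription start (GRCm38.p6, the assembly called mm10), 5′ to 3′ on the strand of the gene. Capitals mark 3 motifs searched on both strands. The CHR element, bound by the DREAM and MuvB complexes, was searched as TTTGAA or TTTAAA. The E2F site was searched as TTTCCCGC, TTTCGCGC, TTTGCCGC or TTTGGCGC, and the box bound by NF-Y as CCAAT.
Top2a: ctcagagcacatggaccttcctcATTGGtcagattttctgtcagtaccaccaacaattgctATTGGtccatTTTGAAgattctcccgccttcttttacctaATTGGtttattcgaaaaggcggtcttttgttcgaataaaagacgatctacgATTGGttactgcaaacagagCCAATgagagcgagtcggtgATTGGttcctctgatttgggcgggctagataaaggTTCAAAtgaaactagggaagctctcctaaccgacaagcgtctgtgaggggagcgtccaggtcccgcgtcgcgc
Cenpf: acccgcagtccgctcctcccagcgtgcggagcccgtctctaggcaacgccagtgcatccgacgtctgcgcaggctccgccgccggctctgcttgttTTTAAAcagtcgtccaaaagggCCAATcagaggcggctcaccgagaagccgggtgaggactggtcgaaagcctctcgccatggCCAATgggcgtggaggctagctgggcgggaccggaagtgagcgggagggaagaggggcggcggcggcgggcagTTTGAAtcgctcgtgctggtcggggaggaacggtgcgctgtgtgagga
Plk1: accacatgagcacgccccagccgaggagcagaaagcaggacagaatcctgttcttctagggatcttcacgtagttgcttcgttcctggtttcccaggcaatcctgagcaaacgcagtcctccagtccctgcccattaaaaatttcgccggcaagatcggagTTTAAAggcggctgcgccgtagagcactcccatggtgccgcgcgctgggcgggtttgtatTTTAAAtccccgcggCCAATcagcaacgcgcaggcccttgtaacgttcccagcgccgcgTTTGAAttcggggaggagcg
Ccne1: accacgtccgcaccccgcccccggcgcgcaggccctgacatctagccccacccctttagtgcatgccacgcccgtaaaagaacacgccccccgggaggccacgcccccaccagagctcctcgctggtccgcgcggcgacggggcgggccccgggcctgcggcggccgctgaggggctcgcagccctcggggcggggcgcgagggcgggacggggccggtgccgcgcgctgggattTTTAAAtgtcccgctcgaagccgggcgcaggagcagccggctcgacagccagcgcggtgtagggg
Mcm6: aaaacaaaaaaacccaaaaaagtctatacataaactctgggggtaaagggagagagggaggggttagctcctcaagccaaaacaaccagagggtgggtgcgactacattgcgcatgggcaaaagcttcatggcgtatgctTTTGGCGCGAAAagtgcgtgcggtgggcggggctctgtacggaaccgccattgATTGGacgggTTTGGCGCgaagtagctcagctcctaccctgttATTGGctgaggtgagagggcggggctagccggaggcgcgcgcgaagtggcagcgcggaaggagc
The windows lie on the minus strand at chr11:99024140-99024439 (Top2a), chr1:189688037-189688336 (Cenpf), chr7:38107441-38107740 (Ccne1) and chr1:128359656-128359955 (Mcm6), and on the plus strand at chr7:122159185-122159484 (Plk1). In the Mcm6 window an E2F match overlaps another on the opposite strand.

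The motifs were spread unevenly over the roles of the members. A promoter entry existed for 32 of the 40 members. E2F letters stood in 6 of 7 licensing members (85.7%), against 2.6% of all 27025 genes with an entry. Only the exact letters given above were searched, so a site spelled otherwise was not counted. The E2F letters stood in 0 of 5 DNA synthesis members and in 0 of 8 members of the spindle, kinetochore and chromosome group. CHR letters stood in 7 of those 8 (87.5%), in 6 of 7 mitotic kinase and checkpoint members (85.7%) and in 2 of 7 licensing members (28.6%), against 30.6% of all genes. CCAAT stood in 24 of the 32 members (75%), against 41.1% of all genes. Top2a and Cenpf, with positive log2 fold changes, and Plk1 and Ccne1, with negative ones, all had CHR letters. These members were picked by their levels and did not pass the test over all genes. A link between motif and direction was not tested.

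The level of the cell cycle genes differed most between the Bmal1KO libraries themselves. Summed over the 40 members, Bmal1KO replicates 1 to 3 had 4211, 10470 and 10370 counts, against 9085, 7905 and 8184 in Bmal1WT replicates 1 to 3. Scaled for depth, the sums were 633, 1186 and 1287 CPM in Bmal1KO, against 1036, 926 and 881 CPM in Bmal1WT. Bmal1KO replicate 1 thus lay below and replicates 2 and 3 above the whole Bmal1WT range. The group means were 1035 ± 352 CPM in Bmal1KO and 948 ± 80.1 CPM in Bmal1WT (SD, n = 3 each), a difference well inside the Bmal1KO spread.

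**Figure D1:**
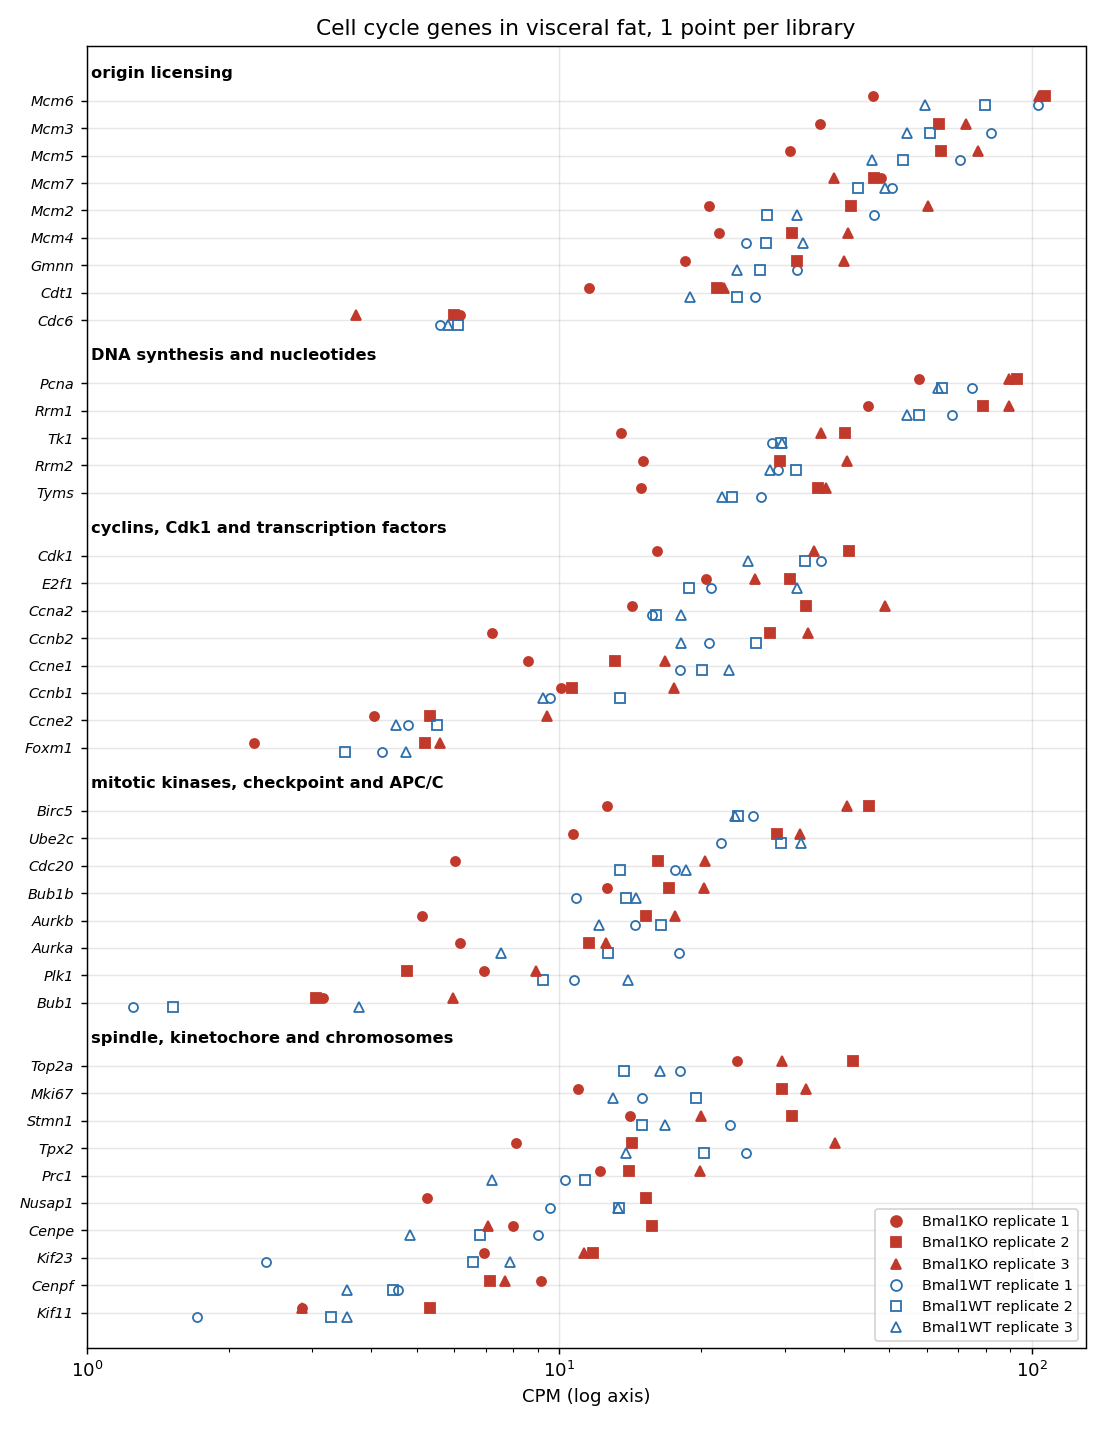
CPM of each of the 40 cell cycle genes (log axis) in each library, grouped by role, with Bmal1KO filled and red above Bmal1WT open and blue, and replicates 1, 2 and 3 as circle, square and triangle. The filled circle, Bmal1KO replicate 1, is the lowest of the 6 points in 27 of the 40 genes.

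The same split ran through single members. In Bmal1KO replicate 1, 28 of 40 members lay below all 3 Bmal1WT libraries, where 27.8% of all tested genes did. In Bmal1KO replicate 2, 20 members lay above all Bmal1WT libraries and 2 below, and in replicate 3, 27 lay above and 4 below, where 30.6% and 30.4% of all tested genes lay above. Bmal1KO replicate 1 was the lowest of the 6 libraries for 27 members (67.5%), against 18.0% of all tested genes.

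Between the groups, 0 of the 40 members passed the quasi-likelihood test of edgeR, adjusted by Benjamini-Hochberg across the 13859 genes tested, as did 0% of those genes (smallest adjusted p of a member = 0.414). All 40 members were among the genes tested. At an unadjusted p under 0.05 there were 4 members, Top2a, Cenpf and Ccna2 higher and Ccne1 lower, or 10% of them. Of all tested genes 9.31% did, 5.05% higher and 4.26% lower, so the share of the members was near the background. With library size scaling the 4 members were all higher, with Prc1 in place of Ccne1. DESeq2 called 0 members and had 3 at an unadjusted p under 0.05 (7.5%), where 4.74% of the 34476 genes in that fit had. No low count filter was set there, so its background takes in many more low genes than the 9.31%. The groups did not overlap in 5 members, Top2a, Cenpf and Prc1 higher and Ccne1 and Plk1 lower, or 12.5% of them. Of all tested genes 15.7% did not overlap, 7.83% higher and 7.85% lower. With library size scaling Ccne1 and Plk1 overlapped, which left 3 members higher and 0 lower, against 11.5% and 4.86% of all tested genes. The median log2 fold change was 0.12 over the members, with 27 positive and 13 negative, against 0.02 over all tested genes, of which 52.0% were positive.

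These counts turned on single libraries. Without Bmal1KO replicate 1 the median log2 fold change of the members was 0.39, with 34 positive. Without Bmal1KO replicate 2 it was -0.03, and without replicate 3 it was -0.08, with 17 positive, so the direction of the list was set by which Bmal1KO library was left out. Without Bmal1KO replicate 1, Ccna2 passed the test over all genes (log2 fold change 1.30, edgeR adjusted p = 0.0411) as the 1 member called, while 1.09% of all tested genes were called. Without Bmal1KO replicate 3 its log2 fold change was 0.52 (edgeR adjusted p = 0.782). With Bmal1KO replicate 1 left out, 16 members lay higher and 2 lower with no overlap, against 17.0% and 16.9% of all tested genes. In that same fit 8 members had an unadjusted p under 0.05, all higher, against 7.53% of tested genes higher at that level. Leaving out Bmal1KO replicate 2 or any 1 Bmal1WT library gave 2 members (5%) at an unadjusted p under 0.05, against 6.97% to 7.61% of all tested genes. Leaving out Bmal1WT replicate 3 gave 8 members (20%) that did not overlap, against 26.0% of all tested genes. Leaving out Bmal1KO replicate 2 or 3 gave 5 (12.5%), against 25.9% and 25.1% of all tested genes.

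Macrophage markers followed the summed level of the members and adipocyte markers ran against it, as erythroid markers nearly did, while most marker lists did neither. The 15 macrophage markers summed to 9102, 16278 and 19273 CPM in Bmal1KO replicates 1 to 3, against 13721, 12956 and 9250 CPM in Bmal1WT. From high to low, the 6 libraries stood in the same order for these markers as for the cell cycle genes. The 12 adipocyte markers summed to 29545, 18486 and 14553 CPM in Bmal1KO and to 23885, 26606 and 28169 CPM in Bmal1WT, which is the reverse of that order. Of 12 marker lists, 1 had the same order and 1 the reverse. Erythroid markers summed to 915, 653 and 452 CPM in Bmal1KO, against 695, 671 and 733 CPM in Bmal1WT. Their order differed from the reverse only by a swap of Bmal1WT replicates 1 and 2. T cell markers summed to 121, 249 and 197 CPM in Bmal1KO, against 30.9, 96.8 and 62.3 CPM in Bmal1WT, so all Bmal1KO libraries stood above all Bmal1WT libraries there, replicate 1 included. The same held for mast cell markers, with 409, 262 and 409 CPM in Bmal1KO, against 127, 157 and 74.0 CPM in Bmal1WT. It also held for mesothelium markers, with 546, 574 and 492 CPM in Bmal1KO, against 399, 482 and 236 CPM in Bmal1WT. Blood endothelial markers had 530, 318 and 352 CPM in Bmal1KO, against 665, 465 and 974 CPM in Bmal1WT. Stromal progenitor markers had 4866, 6138 and 6709 CPM in Bmal1KO, against 6985, 4715 and 4626.5 CPM in Bmal1WT. B and plasma cell markers had 738, 377 and 1309 CPM in Bmal1KO, against 452, 407 and 542 CPM in Bmal1WT. For germinal centre B cell markers the sums were 171, 207 and 208 CPM in Bmal1KO, against 213, 193 and 208 CPM in Bmal1WT. The part of these cell types in the level of the members was not tested.

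**Figure D2:**
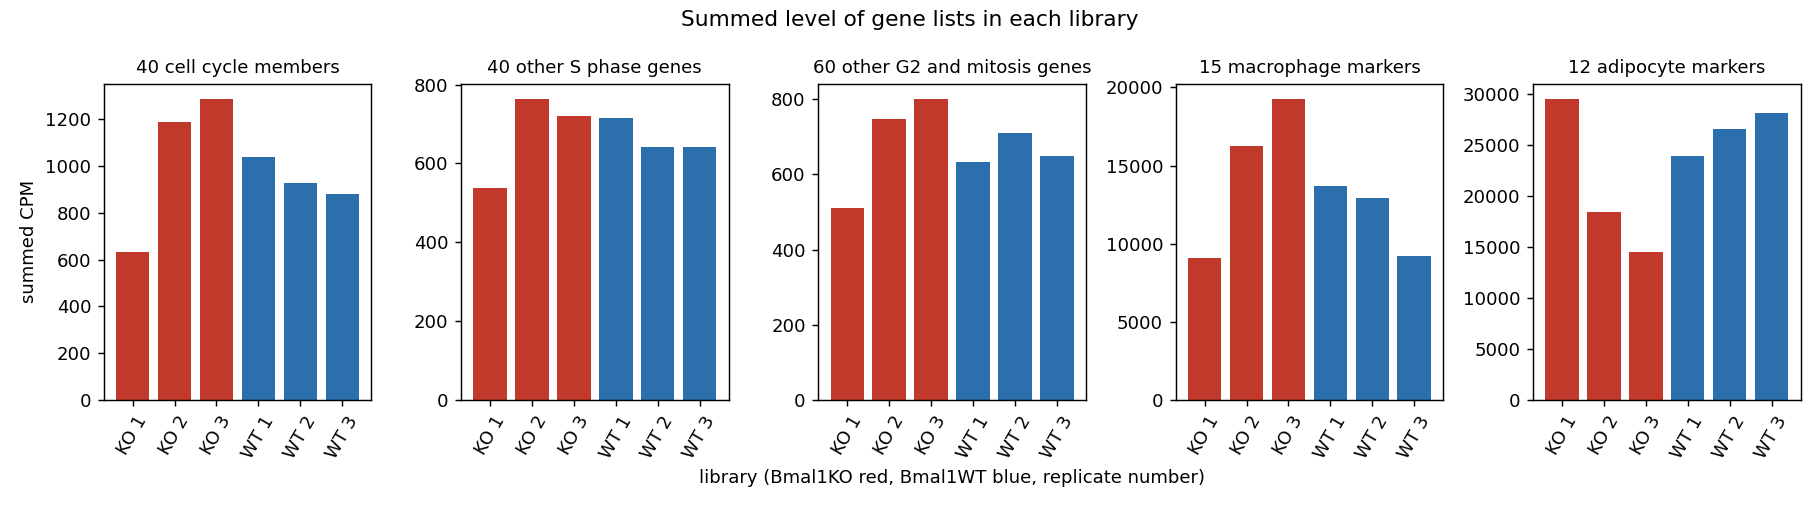
Summed CPM in each library (bars from 0, Bmal1KO red at the left, Bmal1WT blue at the right) of the 40 members, of 2 lists of other cell cycle genes, and of macrophage and adipocyte markers. Bmal1KO replicate 1 is lowest in the first 4 panels and highest for the adipocyte markers, and Bmal1KO replicates 2 and 3 are highest in the first 4 panels and lowest in the last.

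Origin licensing members prepare chromatin for replication. Mcm2 to Mcm7 encode the subunits of the helicase that opens DNA, Cdc6 and Cdt1 load it, and Gmnn encodes geminin, the inhibitor of CDT1. Of these 9 members 0 passed the test, with 5 positive and 4 negative and a median log2 fold change of 0.02. Mcm6 had 307, 941 and 835 counts in Bmal1KO replicates 1 to 3, against 905, 679 and 553 in Bmal1WT replicates 1 to 3. The groups overlapped, with the lowest and the highest value both in Bmal1KO. Its means were 85.4 ± 34.0 CPM in Bmal1KO and 80.8 ± 21.9 CPM in Bmal1WT (SD, n = 3 each). Gmnn had 123, 281 and 323 counts in Bmal1KO, against 279, 227 and 221 in Bmal1WT, again with the extremes in Bmal1KO. Cdt1, of the smallest p in this role, had 77, 191 and 180 counts in Bmal1KO, against 228, 203 and 176 in Bmal1WT (log2 fold change -0.30, SE 0.29). Only Bmal1KO replicate 1 lay outside the Bmal1WT range of Cdt1.

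DNA synthesis members make nucleotides or hold the polymerase on DNA. Pcna encodes the sliding clamp, Rrm1 and Rrm2 the subunits of ribonucleotide reductase, Tyms thymidylate synthase and Tk1 thymidine kinase. Of these 5 members 0 passed, with a median log2 fold change of 0.25 and 4 positive, or 5 positive when scaled by library size alone. Pcna had 384, 824 and 720 counts in Bmal1KO, against 655, 551 and 588 in Bmal1WT. Its level was 80.1 ± 19.5 CPM in Bmal1KO and 67.5 ± 6.27 CPM in Bmal1WT (SD, n = 3 each; log2 fold change 0.25, SE 0.20). Pcna, Rrm1, Tyms and Tk1 all stood lowest in Bmal1KO replicate 1 and above all Bmal1WT libraries in replicates 2 and 3. Per length of exon sequence Pcna was the highest member at 30.8 CPM per kb over the 6 libraries, followed by Gmnn at 19.6 and Mcm6 at 17.8 CPM per kb, and Cenpf was the lowest at 0.395 CPM per kb.

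Among cyclins, Cdk1 and the transcription factors that switch on the cycle, no member differed past the test over all genes. Cyclin A2, encoded by Ccna2, acts in S phase and G2, and cyclin E1, encoded by Ccne1, at entry into S phase. Of the 8 members of this role, 6 had a positive log2 fold change, or 7 when scaled by library size alone (median log2 fold change 0.10). Ccna2 (chr3:36564865-36572150, minus strand, mm10) had 95, 294 and 395 counts in Bmal1KO, against 138, 137 and 168 in Bmal1WT. Bmal1KO replicates 2 and 3 lay far above Bmal1WT, while replicate 1 at 14.3 CPM lay just below the lowest Bmal1WT library at 15.7 CPM. The means were 32.2 ± 17.4 CPM in Bmal1KO and 16.6 ± 1.27 CPM in Bmal1WT (SD, n = 3 each; log2 fold change 0.96, SE 0.37, edgeR adjusted p = 0.477). Of the exon bases of Ccna2, 12.5% are shared with Exosc9 on the opposite strand, and the library does not mark strand. Exosc9 itself had a log2 fold change of -0.17 (SE 0.21).

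Ccne1 (chr7:38097984-38107534, minus strand) had 57, 116 and 135 counts in Bmal1KO, against 158, 171 and 213 in Bmal1WT. Every Bmal1KO library lay below every Bmal1WT library with TMM scaling, at 12.8 ± 4.10 CPM in Bmal1KO and 20.3 ± 2.46 CPM in Bmal1WT (SD, n = 3 each; log2 fold change -0.66, SE 0.29, edgeR adjusted p = 0.523). With library size scaling the groups overlapped, since Bmal1KO replicate 3 was at 17.5 CPM, against 17.1 CPM in Bmal1WT replicate 1. Taken within each library, which needs no scaling, Ccna2 had 1.67, 2.53 and 2.93 counts per count of Ccne1 in Bmal1KO, against 0.873, 0.801 and 0.789 in Bmal1WT. This ratio was chosen after its values were seen, and it put Bmal1KO replicate 1 on the side of the other Bmal1KO libraries. Cdk1, the kinase that cyclins A and B activate for mitosis, had 107, 362 and 279 counts in Bmal1KO, against 314, 283 and 233 in Bmal1WT, with overlapping groups and a log2 fold change of -0.03, or 0.06 when scaled by library size alone. Foxm1, which encodes a factor of the mitotic program, was low, with 15, 46 and 45 counts in Bmal1KO, against 37, 30 and 44 in Bmal1WT.

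Mitotic kinases and checkpoint members were more often lower than higher in Bmal1KO, by differences that did not pass the test. Plk1, Aurka and Aurkb encode kinases of the spindle and centrosome, and Birc5 encodes survivin, the partner of Aurora B. Bub1 and Bub1b belong to the spindle checkpoint, and Cdc20 and Ube2c to the anaphase-promoting complex that destroys cyclin B. Of these 8 members 0 passed, with 3 positive and 5 negative and a median log2 fold change of -0.19. Without Bmal1KO replicate 1 the median was 0.17, with 6 positive. Plk1 (chr7:122159439-122169873, plus strand) had 46, 42 and 72 counts in Bmal1KO, against 94, 79 and 130 in Bmal1WT. Each Bmal1KO level was below each Bmal1WT level with TMM scaling, at 6.87 ± 2.09 CPM in Bmal1KO and 11.3 ± 2.42 CPM in Bmal1WT (SD, n = 3 each; log2 fold change -0.72, SE 0.35, edgeR adjusted p = 0.553). With library size scaling Plk1 overlapped, at 9.35 CPM in Bmal1KO replicate 3, against 9.02 CPM in Bmal1WT replicate 2. Birc5 had 84, 400 and 327 counts in Bmal1KO, against 225, 204 and 219 in Bmal1WT. Its Bmal1KO libraries lay on both sides of a narrow Bmal1WT range of 23.6 to 25.7 CPM.

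Spindle, kinetochore and chromosome members had the highest median log2 fold change of the 5 roles, 0.61, with 9 of 10 positive and 0 past the test over all genes. The median was 0.36 without Bmal1KO replicate 2 and 0.77 without replicate 1. They include Top2a, the topoisomerase that untangles sister chromatids, Mki67, the coat protein of mitotic chromosomes used as the Ki-67 stain, Cenpe and Cenpf of the kinetochore, and Prc1 and Kif23 of the central spindle. Top2a (chr11:98992943-99024189, minus strand, mm10) had 158, 369 and 239 counts in Bmal1KO, against 158, 117 and 152 in Bmal1WT. After scaling for depth every Bmal1KO library lay above every Bmal1WT library, at 31.7 ± 9.19 CPM in Bmal1KO and 16.0 ± 2.18 CPM in Bmal1WT (SD, n = 3 each). Top2a had the smallest p of all members (log2 fold change 0.99, SE 0.26, edgeR adjusted p = 0.414), and its log2 fold change ran from 0.73 to 1.15 with 1 library left out.

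Cenpf (chr1:189640606-189688086, minus strand) had 61, 63 and 62 counts in Bmal1KO, against 40, 38 and 33 in Bmal1WT. The groups did not overlap, and Bmal1KO replicate 1, low for most members, held the highest Cenpf level of all 6 libraries at 9.17 CPM. The means were 8.0 ± 1.05 CPM in Bmal1KO and 4.19 ± 0.555 CPM in Bmal1WT (SD, n = 3 each; log2 fold change 0.93, SE 0.37, edgeR adjusted p = 0.477). Prc1 (chr7:80294450-80316259, plus strand) had 81, 124 and 160 counts in Bmal1KO, against 90, 97 and 67 in Bmal1WT, and its levels did not overlap once scaled for depth (log2 fold change 0.68, SE 0.31, edgeR adjusted p = 0.539). Of its exon bases 11.1% are shared with Rccd1 on the opposite strand, which had 8 to 43 counts per library. Mki67, named after its values were seen, had 73, 262 and 268 counts in Bmal1KO, against 131, 166 and 121 in Bmal1WT, so Bmal1KO replicate 1 again stood below Bmal1WT.

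Within each library, this role took a larger share of the cell cycle counts in Bmal1KO. Spindle, kinetochore and chromosome members took 16.0%, 15.7% and 14.4% of the member counts in Bmal1KO replicates 1 to 3, against 11.4%, 12.3% and 11.4% in Bmal1WT. The groups did not overlap. Mitotic kinase and checkpoint members took 9.998%, 12% and 12.3% in Bmal1KO, against 11.6%, 13.0% and 14.4% in Bmal1WT, with overlap. DNA synthesis members took 23.1%, 23.4% and 22.7% in Bmal1KO, against 21.8%, 22.3% and 22.4% in Bmal1WT, a smaller gap without overlap. The ratio of other G2 and mitosis genes to other S phase genes, from 2 lists of genes that are not members, was 0.950, 0.977 and 1.11 in Bmal1KO, against 0.881, 1.10 and 1.01 in Bmal1WT, and did not separate the groups. These shares carry no test.

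**Figure D3:**
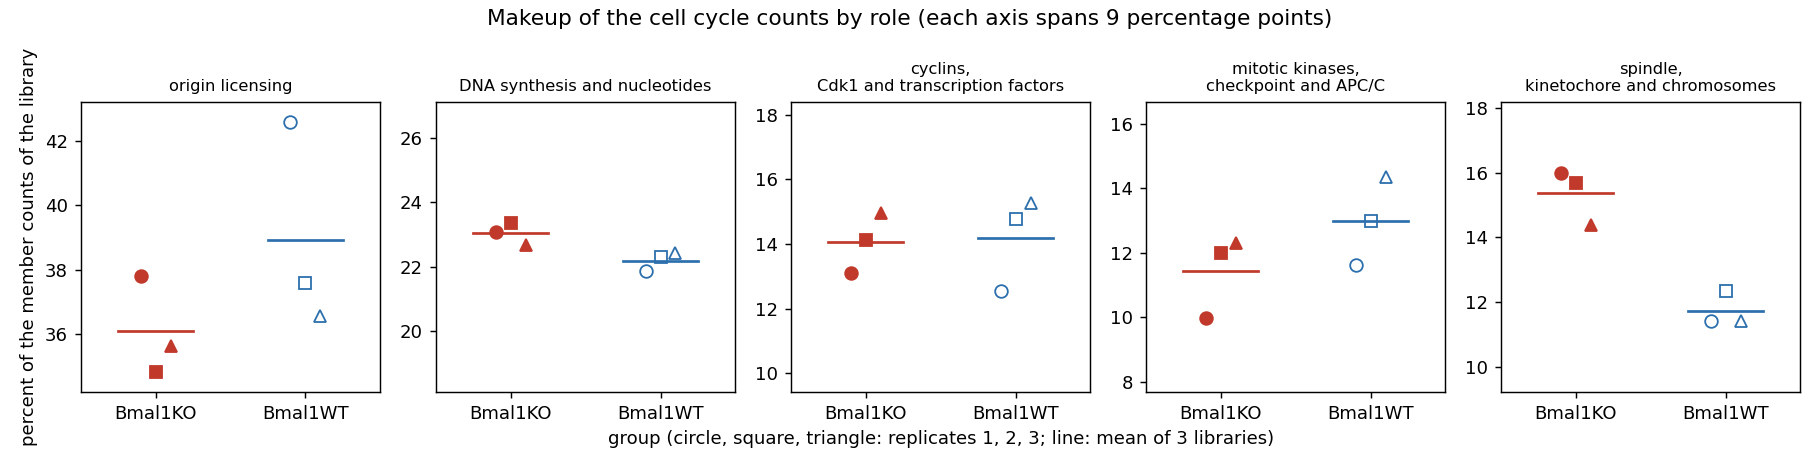
Percent of the summed member counts of each library that fell on each of 5 roles, with Bmal1KO left of Bmal1WT, 1 symbol per replicate and a line at the mean of 3 libraries; each axis spans 9 percentage points and does not start at 0. The spindle, kinetochore and chromosome panel shows 14.4% to 16.0% in Bmal1KO and 11.4% to 12.3% in Bmal1WT.

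Exon length moved with these differences. The 7 members with over 7500 exon bases (GENCODE M21) all had a positive log2 fold change, with a median of 0.68, and 6 of them are of the spindle, kinetochore and chromosome group. The 11 members under 3000 bases had a median of -0.17 and 4 positive, and they include Plk1 and Ccne1. Spearman's rho between exon length and log2 fold change was 0.55 across the 40 members, 0.35 across 97 other cell cycle genes and 0.13 across 13658 tested genes with a length, where genes share libraries and are not independent. Over all tested genes the median log2 fold change was 0.14 above 7500 bases and -0.04 under 3000 bases, so the trend was in the same direction and smaller. Among all genes above 7500 bases, the median log2 level relative to the average of Bmal1WT was 0.27, 0.08 and 0.11 in the Bmal1KO libraries, against -0.05 to 0.08 in Bmal1WT. With the trend over all genes removed, the median of the spindle, kinetochore and chromosome role was 0.47 and that of the DNA synthesis role 0.07, against 0.25 with the trend. Top2a was at 0.85, Cenpf at 0.70 and Plk1 at -0.71. The part of exon length in these differences was not tested further.

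**Figure D4:**
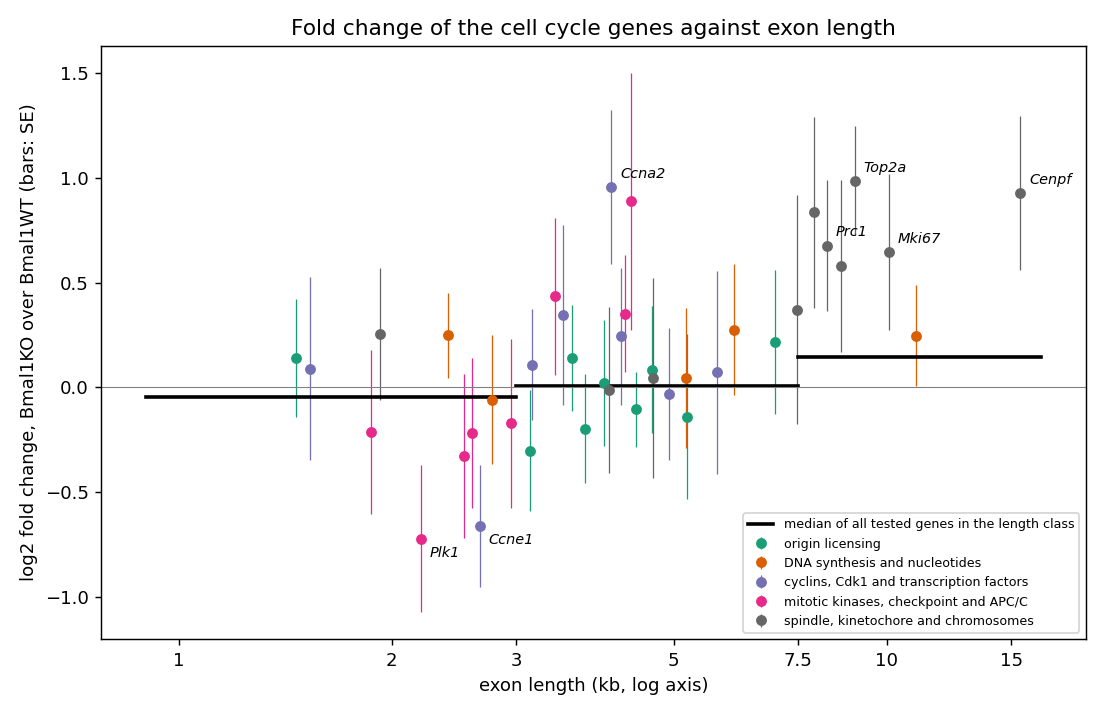
Log2 fold change of Bmal1KO over Bmal1WT (points, with SE bars) against exon length in kb (log axis) for the 40 members, coloured by role. Black lines give the median of all tested genes under 3 kb, from 3 to 7.5 kb and over 7.5 kb; the members over 7.5 kb all lie above 0, with a median of 0.68 against 0.14 for all genes of that length.

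Other genes of the pathway were likewise lowest in Bmal1KO replicate 1. The 40 other S phase genes summed to 538, 764 and 721 CPM in Bmal1KO, against 716, 642 and 641 CPM in Bmal1WT, and the 60 other G2 and mitosis genes to 511, 747 and 800 CPM in Bmal1KO, against 631, 708 and 647 CPM in Bmal1WT. In both lists Bmal1KO replicates 2 and 3 were highest, with replicate 2 on top for the S phase genes and replicate 3 for the G2 and mitosis genes. Of the 97 genes tested in both lists 0 passed, with 59 positive and 38 negative (median log2 fold change 0.08), and 72 positive and 25 negative when scaled by library size alone. At an unadjusted p under 0.05 there were 2 higher and 1 lower of the 97, where 5.05% of all tested genes were higher and 4.26% lower.

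Among the other G2 and mitosis genes the smallest p belonged to Cdc25c, the phosphatase that activates Cdk1. It had 16, 49 and 18 counts in Bmal1KO, against 0, 5 and 7 in Bmal1WT, with no overlap but few counts (log2 fold change 2.89, SE 0.95, edgeR adjusted p = 0.423). Spc25 of the kinetochore was lower on average, with 119, 173 and 187 counts in Bmal1KO, against 293, 316 and 208 in Bmal1WT. Once scaled for depth its groups overlapped, with Bmal1KO replicate 3 above Bmal1WT replicate 3. Hmgb2, a chromatin protein, had 92, 248 and 138 counts in Bmal1KO, against 99, 105 and 112 in Bmal1WT. The checkpoint gene Mad2l1 had 107, 180 and 178 counts in Bmal1KO, against 124, 90 and 147 in Bmal1WT. Among the S phase genes of smallest p, Pola1, a polymerase subunit, had a log2 fold change of 0.82 (SE 0.40), Hells, a chromatin remodeller, 0.96 (SE 0.49), Orc1 of the origin recognition complex 1.39 (SE 0.78), and Rpa1, which coats single-stranded DNA, -0.36 (SE 0.20).

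The remaining 28 members, outside the genes named by rule, had log2 fold changes from -0.33 to 0.89, 19 positive and 9 negative, with edgeR adjusted p between 0.594 and 0.993. Counts over the 40 members ran from 11 to 941 per library, with means of 25.8 to 703 counts, and no member was at 0 in any library. The member of lowest mean count, Bub1, with 21, 27 and 48 counts in Bmal1KO, against 11, 13 and 35 in Bmal1WT, had an SE of 0.61 on its log2 fold change of 0.89.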

How the data were processed

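Per the labels' protocols, RNA from 2 ng of input was copied from an anchored oligo(dT) primer, amplified, cut with the Nextera XT transposase and sequenced as paired 38 bp reads. Such libraries do not mark strand and carry no molecular identifiers. The deposited values are raw counts per gene symbol, which the authors made with featureCounts from reads aligned to mm10 by STAR 2.7.3a, according to the submitters' processing notes. Which annotation was used, and how reads that hit several places were handled, is not given in the sources used here. Symbols of pseudogenes of the members held at most 8 counts.

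Genes passing filterByExpr (13859) entered the fit of edgeR 4.0.16 (R 4.3.3) after TMM scaling, with robust quasi-likelihood dispersion, no covariates, adjustment by Benjamini-Hochberg and 0.05 as the threshold. CPM used TMM-scaled library sizes, and each SE is the unshrunken log2 coefficient over the root of its F value. Exon lengths came from GENCODE M21 (mm10), and promoters from RefSeq (GRCm38.p6). Of the members, 12 share exon bases with another gene, at most 22.8% (Ube2c).

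The members and lists were chosen with earlier results of these data known. Values are given in full for members whose groups did not overlap, with an unadjusted p under 0.05, among the 3 highest per length, or of smallest p or highest mean count in a role, and for up to 4 genes of smallest p in each other list. Alternatives were DESeq2 1.42.0, its size factors or library size alone, 2 other filters, the replicate block, each library left out, replicates 1 of both groups left out, and, added after the data were seen, removal of the length trend.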

Additional observations from a re-analysis of the deposited data

How the results depend on the processing

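Log2 medians of the members and of the other cell cycle genes, and the log2 ratio of the summed member level, moved by less than the spread between libraries under every alternative run. That spread, a pooled SD within groups, was 0.43, 0.23 and 0.40 and includes the low Bmal1KO replicate 1. A limit this wide cannot show that the results are stable, and the medians changed sign with 1 library left out. The number of genes called was 0 with edgeR, 51 with DESeq2, 186 without a low count filter and 61 without replicates 1 of both groups, and between 0 and 156 with 1 library left out. Members called numbered 0 to 1 with 1 library left out. In those fits 2 to 8 members (5% to 20%) had an unadjusted p under 0.05, against 6.97% to 16.2% of all tested genes. Members without overlap numbered 5 to 18 (12.5% to 45%), against 24.2% to 33.9% of all tested genes. Without replicates 1 of both groups these counts were 11 (27.5%) and 25 (62.5%), against 14.9% and 46.3% of all tested genes. Library size scaling left 3 without overlap (7.5%), 3 higher and 0 lower, against 16.3% of all tested genes. Medians ran from -0.08 to 0.39 for the members and from -0.04 to 0.27 for the other cell cycle genes with 1 library left out, and the log2 summed level from -0.07 to 0.38. Log2 fold changes near 0 turned sign: Cdk1 was at 0.064 with library size scaling, at 0.38 without replicates 1 of both groups and between -0.31 and 0.27 with 1 library left out, where Mcm6 ran from -0.11 to 0.38, Gmnn from -0.12 to 0.39 and Cdt1 from -0.46 to -0.06. Without replicates 1 of both groups Cdt1 was at 0.048, Gmnn at 0.52 and Mcm6 at 0.60. The median of all genes in the fit was 0.11 with library size scaling, 0.45 without a low count filter and 0.47 with DESeq2, against 0.02 in the fit reported. In the unfiltered and DESeq2 fits it lay above the median of the members, 0.11 in each. Those fits held 34517 and 34476 genes, against 13859 in the fit reported. Bmal1KO replicate 1 had counts on 30019 genes, against 19009 to 20145 in the other libraries. The cause of these shifts was not tested. No pairing of the libraries by replicate number was seen. Deviations of same-numbered libraries correlated at -0.07, 0.09 and -0.03, and 1 of 3 Bmal1KO libraries correlated best with its own number. With so few libraries these values cannot exclude a pairing. With the replicate block, 0 members passed, 5 (12.5%) had an unadjusted p under 0.05, against 8.09% of all tested genes, and the median was 0.10, with 22 positive. Members of few counts, such as Bub1 and Kif11, have the largest SE.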

Other observations

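Genes that govern entry into the cycle did not follow the order of the libraries seen for S phase and mitosis genes. The 35 genes of this list, among them D-type cyclins, their kinases, E2F and retinoblastoma family members and kinase inhibitors, summed to 1731, 1605 and 1495 CPM in Bmal1KO replicates 1 to 3, against 1609, 1710 and 1788 CPM in Bmal1WT replicates 1 to 3. Bmal1KO replicate 1, lowest for the S phase and mitosis genes, was second from the top here. Of 34 tested genes 0 passed edgeR's test, and 1 had an unadjusted p under 0.05, where 9.31% of all tested genes had. That gene was Cdkn2b, which encodes the inhibitor p15 of the D-cyclin kinases. It had 160, 241 and 288 counts in Bmal1KO, against 333, 307 and 508 in Bmal1WT (log2 fold change -0.56, SE 0.23, edgeR adjusted p = 0.495). Its groups did not overlap with TMM scaling, by a narrow gap, and did overlap with library size scaling. Cdk6, a D-cyclin kinase, had 326, 800 and 732 counts in Bmal1KO, against 332, 512 and 529 in Bmal1WT. E2f5 had 28, 61 and 30 counts in Bmal1KO, against 23, 25 and 11 in Bmal1WT, and Cdkn1c, which encodes the inhibitor p57, had 26, 20 and 22 counts in Bmal1KO, against 9, 2 and 16 in Bmal1WT. Both had no overlap after scaling and few counts. Among genes named after their values were seen, Ccnd2 was the most abundant D-type cyclin by count, with 3401, 3603 and 2110 counts in Bmal1KO, against 3983, 4373 and 5136 in Bmal1WT (log2 fold change -0.36, SE 0.23). Cdkn1a, which encodes p21, was at 218 ± 13.4 CPM in Bmal1KO and 217 ± 10.8 CPM in Bmal1WT (SD, n = 3 each).

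Top2a and Plk1, both genes of the mitotic program with CHR letters in their promoters, had log2 fold changes of opposite sign, and Plk1 overlapped between the groups with library size scaling. Within each library Top2a had 3.43, 8.79 and 3.32 counts per count of Plk1 in Bmal1KO, against 1.68, 1.48 and 1.17 in Bmal1WT. This ratio was chosen after its values were seen, and the genes differ in exon length, 9013 bases for Top2a and 2199 for Plk1. They have the highest and the lowest log2 fold change of the 40 members, 0.99 and -0.72. Each gene already separated the groups with TMM scaling, so the ratio had to separate them and adds no evidence.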
